A study of Mus musculus with 24 samples.

Results

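The proton pump and lysosome genes described here are 33, namely 13 subunits and 2 accessory proteins of the pump, 4 lysosomal membrane proteins, 9 hydrolases, 3 other lumenal proteins, Tfeb and the autophagy receptor gene Sqstm1, out of 23337 genes in the count table. They were taken by symbol, as a set assembled because Atp6v1h, the H subunit of V1, lay higher in TKO than in Ctrl. That contrast is therefore given for these genes as a description without p-values, and Atp6v1h is given without p-values in every contrast with TKO.

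The acidic interior of the lysosome is kept by the vacuolar proton pump, a rotary machine whose V1 sector splits ATP in the cytosol and drives the membrane sector V0, which carries protons into the lumen. Hydrolases, their helper proteins and a membrane coat rich in the Lamp glycoproteins complete the organelle, and the transcription factor Tfeb switches on many of the genes through E-boxes in their promoters. In heart muscle this system clears glycogen and worn mitochondria, and inherited loss of human LAMP2 or GAA causes cardiomyopathy.

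RNA was sequenced from cardiomyocytes freed by Langendorff perfusion and sorted by flow cytometry, in 4 groups of 6 libraries from mice 4 weeks old that received adeno-associated virus (AAV) on postnatal day 1. TKO mice were Mrtfa-/- (spelled Mrfta in the labels), Mrtfb-F/F and Rosa-Cas9/Cas9 and received AAV-Myocd-sgRNA, a virus carrying a guide against Myocd. DKO mice had the same genotype and received AAV-Cre. MKO mice were Rosa-Cas9/Cas9 and received AAV-Myocd-sgRNA. Ctrl mice were Rosa-Cas9/Cas9 and received AAV-Cre, so that all 4 groups carried Cas9. The labels do not name the promoters of the viruses, do not say whether the guide virus also carried Cre, and do not say whether libraries of a group came from separate mice. P-values therefore measure the spread between these libraries.

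Total counts ranged from 5830185 in DKO 1 to 17184517 in TKO 3. Levels are CPM (counts-per-million), read counts scaled to the effective size of each library. Mrtfa RNA (listed as Mkl1) was 1.33 to 2.66 CPM in TKO and 1.40 to 2.77 CPM in DKO, against 6.39 to 11.9 CPM in MKO and 4.81 to 11.3 CPM in Ctrl. Mrtfb RNA (listed as Mkl2) was 27.5 to 42.5 CPM in TKO and 26.6 to 39.3 CPM in DKO, against 44.1 to 59.2 CPM in MKO and 44.8 to 55.9 CPM in Ctrl, with log2 ratios to Ctrl of -0.46 ± 0.11 in TKO (adjusted p = 0.0041, edgeR) and -0.57 ± 0.11 in DKO (adjusted p = 0.00603). Myocd RNA was 175 to 323 CPM in TKO, 175 to 242 in DKO, 119.8 to 187 in MKO and 153 to 234 in Ctrl. It was called higher in TKO than in Ctrl (log2 ratio 0.40 ± 0.13, adjusted p = 0.0437, edgeR) and than in MKO (0.77 ± 0.13, adjusted p = 0.000374). It was not called in TKO against DKO (0.23 ± 0.13, adjusted p = 0.298) or in MKO against Ctrl (-0.37 ± 0.13, adjusted p = 0.717). An edit by Cas9 need not lower the count of a gene, so the Myocd counts do not check the guide, and the loss of Myocd is taken from the labels. None of the 10 cardiomyocyte markers was at 0 across a whole group, and their summed level was 93455 to 125054 CPM in TKO and 133359 to 165298 CPM in Ctrl. In TKO against Ctrl 4 of the 10 were called lower, beside 5.98% of all tested genes, with 8 log2 ratios below 0 and 2 above. The sum is weighted to Myh6, which averaged 52152 CPM in TKO and 80693 CPM in Ctrl. In such bulk RNA, fewer cells of a type and less RNA per cell cannot be told apart.

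The library DKO 1 stood apart. It was the shallowest, and by its Xist and Y-linked transcripts the sole male among the DKO libraries. It held the lowest summed fibroblast (135 CPM), endothelial (153 CPM) and smooth muscle and pericyte (194 CPM) marker levels of its group. Its summed cardiomyocyte marker level, 135494 CPM, was the highest of the group. These marker ranks were not particular to DKO 1. Within Ctrl, Ctrl 3 had the lowest fibroblast (161 CPM), endothelial (114 CPM) and smooth muscle and pericyte (472 CPM) sums. The cardiomyocyte sum of Ctrl 3, 165298 CPM, was the highest of Ctrl. Of the 32 members with enough counts to test, 26 lay above the other 5 DKO libraries in DKO 1 and 4 lay below them, Atp6v1h, Lamp2, Atp6v0a1 and Gla. Over all 12281 tested genes, 37.1% lay above and 42.4% below. In the other 23 libraries between 0 and 16 members lay above the other 5 of their group. The main results that involve DKO are therefore given with and without DKO 1. By the same transcripts TKO had 3 male and 3 female libraries, and MKO and Ctrl each had 4 male and 2 female. Results without DKO 1 thus set 5 female DKO libraries against groups of both sexes.

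The promoters of the set are shown first because an E-box is the feature that the Tfeb pathway reads. RefSeq promoter entries on GRCm38.p6, from 250 bases before to 50 bases past each annotated start, matched 27 of the 33 members. The E-box CACGTG, which reads the same on both strands, was present in 11 of these 27 genes (40.7%), against 8.09% of 27025 genes with an entry. With a T before it (TCACGTG on either strand, a subset of the E-boxes) it was present in 10 members (37.0%), against 4.29% of genes. A longer palindrome around the E-box, the CLEAR element, was also searched and was present in 0 of the 27 members, against 0.37% of genes. It is so rare among all genes that its absence from 27 says little. Among the 9 members called higher in TKO than in Ctrl, 7 had an entry, and Atp6v1h and Atp6v1c1 had none. Of these 7, 1, Ctsa, held an E-box. Among the other 20 with an entry, 10 held one. This split uses calls of the contrast on which the set was chosen and is a description. Lamp1 (chr8:13158911-13159210, plus strand) held 4, which start 61, 45, 28 and 15 bases before the annotated start. Ctsa (chr2:164833523-164833822, plus strand, the later of its 2 annotated starts) held 2, beginning 12 bases before the start and at base 6 counted from the start as base 1. The windows of Lamp2 (chrX:38456411-38456710, minus strand) and Sqstm1 (chr11:50210771-50211070, minus strand) held none. Each sequence is written 5′ to 3′ on the strand of its gene, and capitals mark E-boxes with any T before or A after them.
Lamp1: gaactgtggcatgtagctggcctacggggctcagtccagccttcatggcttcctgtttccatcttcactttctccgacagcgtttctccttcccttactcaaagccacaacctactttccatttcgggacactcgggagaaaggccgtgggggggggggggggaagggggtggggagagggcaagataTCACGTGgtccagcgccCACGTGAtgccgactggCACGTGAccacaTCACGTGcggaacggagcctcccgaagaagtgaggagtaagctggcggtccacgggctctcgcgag
Ctsa: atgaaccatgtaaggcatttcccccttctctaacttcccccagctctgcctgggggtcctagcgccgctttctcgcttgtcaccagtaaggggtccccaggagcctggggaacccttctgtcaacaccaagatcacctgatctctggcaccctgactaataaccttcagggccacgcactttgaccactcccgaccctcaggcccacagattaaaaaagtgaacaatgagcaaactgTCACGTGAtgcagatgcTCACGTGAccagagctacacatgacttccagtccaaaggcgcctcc
Lamp2: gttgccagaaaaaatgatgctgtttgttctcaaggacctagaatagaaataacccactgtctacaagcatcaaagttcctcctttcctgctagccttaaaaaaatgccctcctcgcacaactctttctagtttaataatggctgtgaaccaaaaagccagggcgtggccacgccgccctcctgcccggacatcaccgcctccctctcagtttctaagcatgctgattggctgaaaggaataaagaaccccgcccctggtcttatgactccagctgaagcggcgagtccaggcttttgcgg
Sqstm1: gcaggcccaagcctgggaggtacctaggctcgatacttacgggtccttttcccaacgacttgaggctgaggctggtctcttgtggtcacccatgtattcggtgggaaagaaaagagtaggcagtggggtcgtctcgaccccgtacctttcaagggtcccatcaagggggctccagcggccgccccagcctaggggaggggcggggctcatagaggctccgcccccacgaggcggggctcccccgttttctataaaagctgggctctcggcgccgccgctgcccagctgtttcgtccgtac
These matches are letters in a window, not sites shown to be bound.

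Levels per length, as RPKM (CPM per 1000 bases of exon), placed Ctsd, Psap, Lamp1 and Sqstm1 at the top of the set. Ctsd, an aspartic protease, averaged 676 ± 105 RPKM in TKO and 645 ± 82.7 RPKM in Ctrl (SD, n = 6 each). Psap, the precursor of the saposins that help lipid hydrolases, averaged 325 ± 86.1 RPKM in TKO and 364 ± 33.3 RPKM in Ctrl, and Sqstm1 averaged 365 ± 48.7 RPKM in TKO and 228 ± 19.4 RPKM in Ctrl. Thus Sqstm1 ranked above Psap in TKO and below it in Ctrl, and within TKO the means of the pair lay closer than the SD of either. Of the pump, the peripheral stalk subunit Atp6v1e1 was the most abundant per length at 141 ± 7.81 RPKM in TKO and 152 ± 18.8 RPKM in Ctrl. Atp6v1h, at 34.4 ± 4.15 RPKM in TKO and 24.7 ± 2.15 RPKM in Ctrl, and the catalytic subunit Atp6v1a, at 11.7 ± 1.72 RPKM in TKO and 10.005 ± 0.577 RPKM in Ctrl, were the lowest of the 8 V1 genes in both groups. Gla, the alpha-galactosidase, was the lowest tested member at 1.06 ± 0.117 RPKM in TKO and 0.852 ± 0.274 RPKM in Ctrl. Atp6v0c, a subunit of the proton-carrying ring, had 54 counts in all 24 libraries together and was not tested. Of its 1151 exon bases 1117 (97%) are shared with Atp6v0c-ps2, which has 0 counts, and the sources used here do not say how reads on shared bases were counted.

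**Figure D1:**
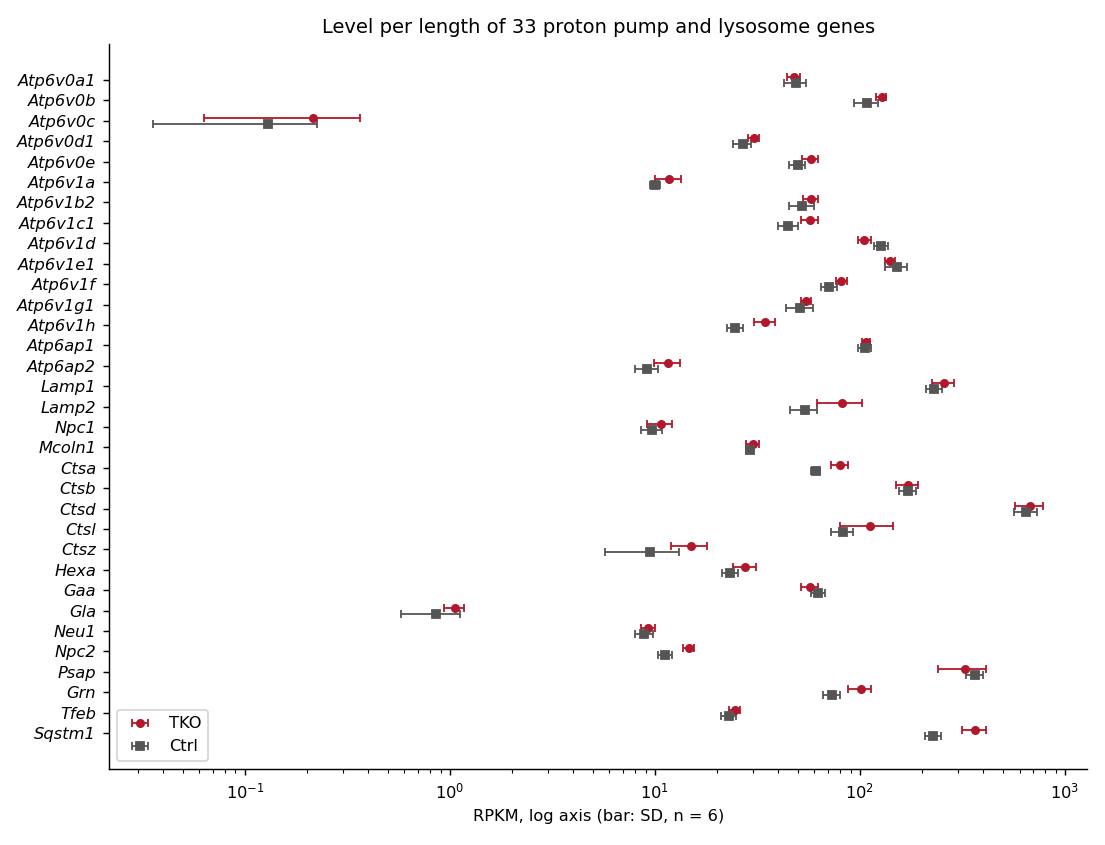
Mean level per length (RPKM, log axis, bars SD, n = 6 libraries) of the 33 genes in TKO and Ctrl, ordered from pump subunits to regulators. Ctsd averaged 676 RPKM in TKO and 645 RPKM in Ctrl, and Gla 1.06 RPKM in TKO and 0.852 RPKM in Ctrl.

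Against Ctrl, in the fit of all 24 libraries, every class but the V0 sector held at least 1 member called higher in TKO. Median log2 ratios were 0.20 for V0 and 0.17 for V1. This split by class depends on the fit. The accessory class entered through Atp6ap2 alone, a call lost in 21 of 31 alternative fits. Without both Ctrl 3 and DKO 1, the V0 gene Atp6v0b was called higher, at 0.27 ± 0.09. That was the 1 of 31 alternative fits with this call. Genes were called by edgeR's quasi-likelihood test at a Benjamini-Hochberg adjusted p under 0.05 over all tested genes, and log2 ratios are given with their standard error. By this rule 9 of 32 members were higher and 0 lower in TKO than in Ctrl, beside 14.1% of all tested genes called, 8.14% higher and 5.98% lower. The median log2 ratio was 0.19 over the members, 26 of which were above 0, and -0.01 over all tested genes. Since the set was chosen on this contrast, these counts describe it and support nothing. All 6 TKO libraries lay above all 6 Ctrl libraries for 6 members, Atp6v1h, Atp6v1c1, Ctsa, Npc2, Grn and Sqstm1, beside 4.76% of tested genes. Without DKO 1, whose spread enters the shared fit, the calls were 12 higher and 1 lower, beside 22.7% of all genes called and 11.8% higher. The 4 gained were the rotor subunit Atp6v1f, the protease Ctsl and the hexosaminidase subunit Hexa, and on the lower side the rotor subunit Atp6v1d. Without Ctrl 3, 7 members were called higher and 0 lower, beside 12.3% of all genes called and 7.19% higher. The calls lost were Ctsz and Atp6ap2.

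In the V1 sector, Atp6v1h (chr1:5083173-5162549 in mm10, plus strand) couples ATP splitting to the intact pump. Its lowest, median and highest values were 58.6, 69.2 and 75.9 CPM in TKO, 34.4, 48.8 and 52.8 in DKO, 50.3, 53.9 and 57.0 in MKO and 43.6, 47.7 and 54.0 in Ctrl. The 6 TKO libraries lay above all 18 others, with TKO 1, TKO 4 and TKO 6 highest, and DKO 1 was the lowest of all. Its log2 ratio was 0.48 ± 0.09 in TKO against Ctrl, 0.54 ± 0.09 against DKO (0.48 ± 0.08 without DKO 1) and 0.33 ± 0.09 against MKO. It was -0.06 ± 0.09 in DKO against Ctrl (adjusted p = 0.861, edgeR) and 0.15 ± 0.09 in MKO against Ctrl (adjusted p = 0.786, edgeR), and neither passed.

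The H subunit was also set against the mean of its partners. Its RPKM divided by the mean RPKM of the other 7 V1 genes was 0.41, 0.48 and 0.54 (lowest, median, highest) in TKO. The same ratio was 0.14, 0.38 and 0.41 in DKO, where DKO 1 had the 0.14, and it was 0.35, 0.38 and 0.42 in MKO and 0.30, 0.34 and 0.40 in Ctrl. TKO libraries lay above all Ctrl and all DKO libraries and overlapped the MKO range at its upper end. The mean is weighted to the most abundant partners, Atp6v1e1 and Atp6v1d, at 152 and 127 RPKM in Ctrl. In TKO against Ctrl these had log2 ratios of -0.11 ± 0.12 and -0.27 ± 0.12. They were the 2 of the 8 V1 genes below 0, with 6 above. No test is given, since the rule used Atp6v1h.

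**Figure D2:**
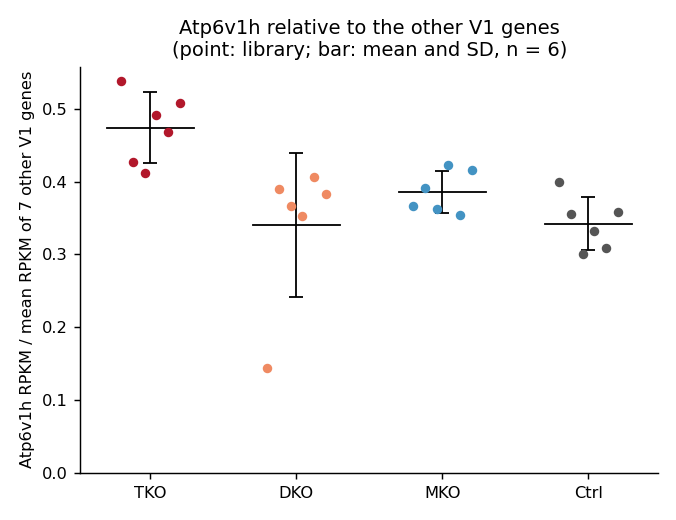
Atp6v1h RPKM divided by the mean RPKM of the other 7 V1 genes in each library (points; bars are mean and SD, n = 6), with TKO, DKO, MKO and Ctrl from left to right. TKO values span 0.41 to 0.54, MKO 0.35 to 0.42 and Ctrl 0.30 to 0.40, and the single low DKO point at 0.14 is DKO 1.

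Atp6v1c1 (chr15:38661904-38692444, plus strand) encodes the C subunit, which leaves the pump when it comes apart. It had 110.2, 113 and 137 CPM in TKO, 85.4, 94.0 and 122 in DKO, 86.1, 95.2 and 99.95 in MKO and 79.9, 91.2 and 108 in Ctrl. TKO lay above every MKO and Ctrl library and above every DKO library but DKO 1. The log2 ratio was 0.35 ± 0.09 against Ctrl, 0.35 ± 0.09 against MKO (adjusted p = 0.0119, edgeR) and 0.31 ± 0.09 against DKO (adjusted p = 0.0401, edgeR). Without DKO 1 the DKO contrast was 0.39 ± 0.08 (adjusted p = 0.00281, edgeR). Over the 31 alternatives the adjusted p for DKO ran from 0.00227 to 0.185, missing the threshold in 17.

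The catalytic subunit Atp6v1a (chr16:44085404-44139019, minus strand) had 37.4, 47.2 and 55.1 CPM in TKO, 34.7, 36.7 and 44.7 in DKO, 41.7, 43.3 and 46.4 in MKO and 36.6, 40.0 and 42.5 in Ctrl. Its log2 ratio was 0.29 ± 0.09 in TKO against DKO (adjusted p = 0.044, edgeR) and 0.28 ± 0.09 without DKO 1 (adjusted p = 0.0461), a call lost in 21 of 31 alternatives, with adjusted p from 0.0142 to 0.208. Atp6v1d pointed the other way at -0.27 ± 0.12 in TKO against Ctrl, with 134, 147 and 168 CPM in TKO and 167, 174 and 201 CPM in Ctrl. The subunits of the V1 sector thus did not all point one way. The most abundant, Atp6v1e1, had 161, 167 and 187 CPM in TKO, 139, 156 and 271 in DKO, 172, 188 and 198 in MKO and 151, 182 and 218 in Ctrl, with a log2 ratio of -0.11 ± 0.12 in TKO against Ctrl, and its high DKO value is DKO 1. The nucleotide-binding subunit Atp6v1b2, the rotor subunit Atp6v1f and the stalk subunit Atp6v1g1 had log2 ratios of 0.13 ± 0.10, 0.20 ± 0.18 and 0.09 ± 0.17 against Ctrl.

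None of the 4 tested V0 genes was called in any of the 7 comparisons by edgeR's fit of all 24 libraries with the groups alone. With a sex term Atp6v0b was called higher in DKO than in MKO (0.59 ± 0.17, adjusted p = 0.0482, edgeR). That was the 1 of 31 alternatives with this call. The fit without DKO 1, the sole male of DKO, held no sex term, so it cannot show whether the call rests on that library. Their log2 ratios in TKO against Ctrl were -0.03 ± 0.10 for Atp6v0a1, which holds the proton half-channels, 0.24 ± 0.16 for the ring subunit Atp6v0b, 0.18 ± 0.14 for Atp6v0d1, which joins ring and rotor, and 0.21 ± 0.15 for the small subunit Atp6v0e. Atp6v0b (chr4:117884330-117887329) had 118, 126 and 138 CPM in TKO, 105, 115 and 258 in DKO, 82.4, 93.7 and 119 in MKO and 91.6, 109 and 125 in Ctrl. The highest DKO value is DKO 1, and TKO overlapped each other group. Without that library Atp6v0b exceeded MKO in TKO by 0.40 ± 0.09 (adjusted p = 0.00225, edgeR, against 0.117 with it). Of the accessory proteins, Atp6ap2 (chrX:12587759-12617051), the prorenin receptor that helps to assemble the pump, was at 0.33 ± 0.11 in TKO against Ctrl. Its levels were 22.2, 27.5 and 32.4 CPM in TKO, 20.3, 23.5 and 31.4 in DKO, 22.8, 24.7 and 27.7 in MKO and 18.01, 21.4 and 25.1 in Ctrl. TKO and Ctrl overlapped, and the call was lost in 21 of 31 alternatives. Atp6ap1, the other accessory subunit, had 218, 238 and 246 CPM in TKO, 197, 227 and 317 in DKO, 194, 229 and 240.4 in MKO and 204, 230.0 and 253 in Ctrl, and its log2 ratio was 0.02 ± 0.09 in TKO against Ctrl.

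**Figure D3:**
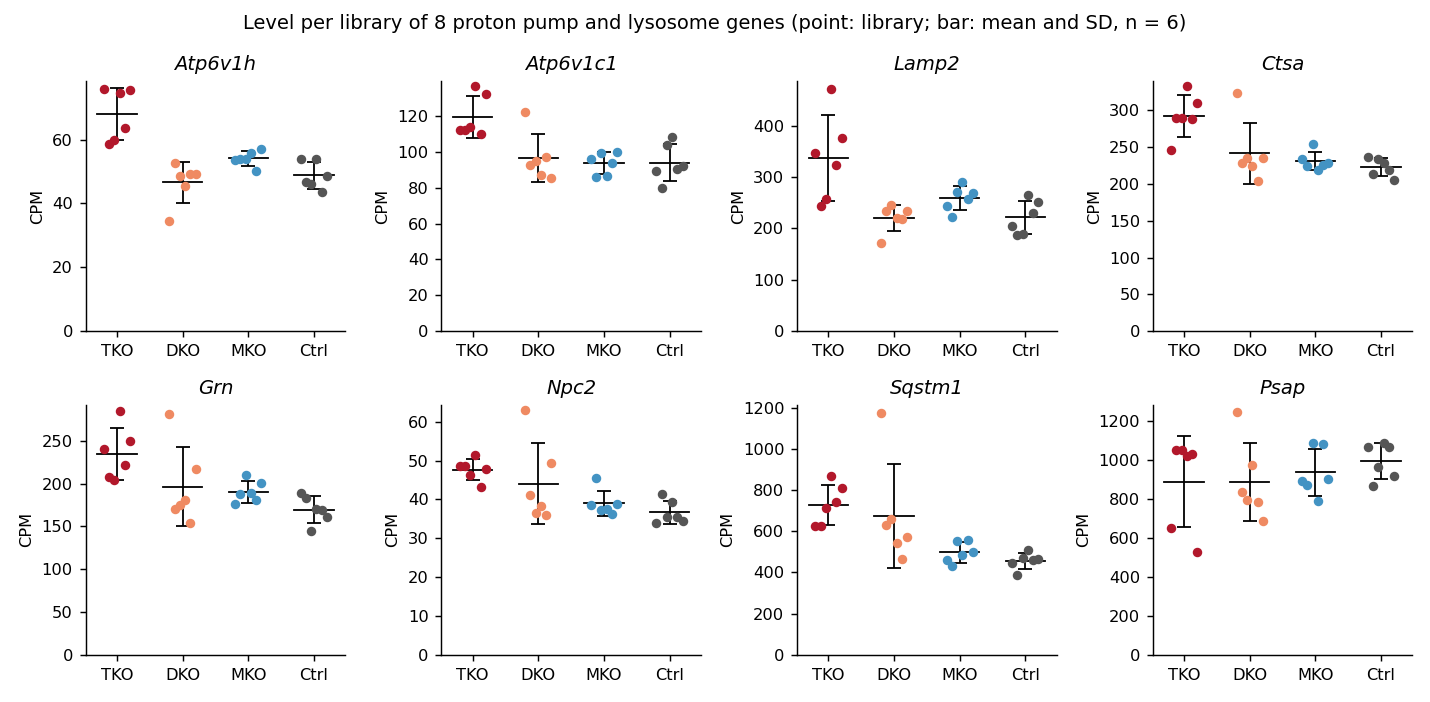
CPM in each library (points) with the mean and SD (bars, n = 6) for 8 members, groups from left to right TKO, DKO, MKO and Ctrl. For Atp6v1h the TKO points, 58.6 to 75.9 CPM, lie above all others, DKO 1 is the high DKO point for Sqstm1 at 1175 CPM, and for Psap 2 TKO points lie at 527 and 653 CPM.

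Among the membrane proteins, Lamp2 (chrX:38405064-38456455, minus strand), which takes part in fusion with autophagosomes, differed most. It had 244, 335 and 472 CPM in TKO, 172, 226 and 246 in DKO, 222, 264 and 290.0 in MKO and 187, 218 and 265 in Ctrl. TKO 4 was highest at 472 CPM, while TKO 2 and TKO 3, at 244 and 257 CPM, lay inside the Ctrl range. The log2 ratio was 0.60 ± 0.13 against Ctrl and 0.61 ± 0.13 against DKO (adjusted p = 0.0051, edgeR), and 0.56 ± 0.13 against DKO without DKO 1 (adjusted p = 0.00961). With only TKO and DKO in the fit the adjusted p was 0.0547, the highest over its alternatives, and the lowest was 0.000426. Against MKO it was 0.38 ± 0.13 (adjusted p = 0.0578, edgeR), and 0.39 ± 0.12 without DKO 1 (adjusted p = 0.0283). Lamp2 lies on the X chromosome, and with a term for sex in the fit the log2 ratio against DKO was 0.69 ± 0.12 (adjusted p = 0.00105, edgeR). Lamp1, the other major coat glycoprotein, had 506, 572 and 659 CPM in TKO, 468, 517 and 719 in DKO, 511, 553 and 602 in MKO and 442, 522 and 579 in Ctrl, all groups overlapping, and its log2 ratio was 0.15 ± 0.10 in TKO against Ctrl. The cholesterol transporter Npc1 was at 0.15 ± 0.12 and the calcium channel Mcoln1 at 0.05 ± 0.07 in the same contrast.

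Of the 9 hydrolase genes, 2 were called higher in TKO than in Ctrl. Ctsa (chr2:164832873-164841032, plus strand), a carboxypeptidase that also shields the sialidase Neu1, had 246, 289.6 and 333 CPM in TKO, 204, 232 and 323 in DKO, 219, 227 and 255 in MKO and 206, 224 and 236 in Ctrl. The high DKO value is DKO 1, and TKO lay above the other 5 DKO libraries and above Ctrl. The log2 ratio was 0.39 ± 0.09 against Ctrl, 0.34 ± 0.09 against MKO (adjusted p = 0.0138, edgeR) and 0.28 ± 0.09 against DKO (adjusted p = 0.065). Without DKO 1 the last was 0.38 ± 0.07 (adjusted p = 0.000805, edgeR). Of the exon bases of Ctsa, 13.5% are shared with Pltp and 8.82% with Neurl2, and the kit does not mark strand, so reads there cannot be told apart. Neu1 itself was at 0.06 ± 0.09 against Ctrl. Ctsd, the most abundant member, had 985, 1333 and 1621 CPM in TKO, 1065, 1161 and 2051 in DKO, 1074, 1224 and 1456 in MKO and 999.6, 1254 and 1502 in Ctrl, with overlapping groups and a log2 ratio of 0.07 ± 0.14 in TKO against Ctrl.

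Ctsz (chr2:174427494-174438992, minus strand), another carboxypeptidase, had 16.03, 21.1 and 26.3 CPM in TKO, 12.9, 15.2 and 20.4 in DKO, 13.1, 16.2 and 24.5 in MKO and 6.96, 12.6 and 22.5 in Ctrl. It was at 0.66 ± 0.21 in TKO against Ctrl, with overlapping groups, and the call was lost with only TKO and Ctrl in the fit and without any of Ctrl 1, Ctrl 3, Ctrl 4, Ctrl 5, Ctrl 6, TKO 1, TKO 2 or TKO 4. Ctsz is abundant in macrophages, as are Grn and Npc2. The summed level of the 13 leukocyte markers was 14.4 to 21.01 CPM in TKO and 6.72 to 21.2 CPM in Ctrl. Of the 9 tested, 8 had a log2 ratio above 0, with a median of 0.70, and 0 were called, with 1 at an unadjusted p under 0.05; none was at 0 across a whole group. Their part in the levels of Ctsz, Grn and Npc2 was not tested. The cysteine protease Ctsl, at 0.45 ± 0.21, had 168, 204 and 346 CPM in TKO and 145, 159.8 and 198 CPM in Ctrl, with its highest TKO value in TKO 4. The remaining hydrolases ran from -0.14 ± 0.10 for the glycogen-splitting Gaa to 0.31 ± 0.24 for Gla in TKO against Ctrl and were not called. Of the exon bases of one of them, the cysteine protease Ctsb, 16.3% are shared with Fdft1.

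In the lumenal class, Grn (chr11:102430322-102436809, plus strand), which encodes progranulin, had 204, 231 and 285 CPM in TKO, 154, 178 and 281 in DKO, 176, 188 and 210.1 in MKO and 144, 169.7 and 189 in Ctrl. Npc2 (chr12:84754559-84773112, minus strand), which hands cholesterol to Npc1, had 43.1, 48.3 and 51.5 CPM in TKO, 36.0, 39.7 and 62.9 in DKO, 36.3, 38.1 and 45.5 in MKO and 34.0, 35.6 and 41.4 in Ctrl. Both lay above Ctrl in every TKO library, and both had their highest DKO value in DKO 1. Their log2 ratios in TKO were 0.47 ± 0.12 for Grn and 0.38 ± 0.11 for Npc2 against Ctrl. Against DKO, Grn was at 0.26 ± 0.12 (adjusted p = 0.176, edgeR), and at 0.39 ± 0.09 without DKO 1 (adjusted p = 0.00783). For Npc2 the log2 ratio against DKO was 0.12 ± 0.11 (adjusted p = 0.499, edgeR), and 0.25 ± 0.08 without DKO 1 (adjusted p = 0.0476). Psap split the TKO libraries. It was 653 CPM in TKO 1 and 527 CPM in TKO 6 but 1018 to 1053 CPM in the other 4, which lay inside the 868 to 1087 CPM of Ctrl. Its medians were 1025 CPM in TKO, 816 in DKO, 898 in MKO and 1015 in Ctrl, and its log2 ratio was -0.16 ± 0.16 in TKO against Ctrl.

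The regulators differed from each other. Sqstm1 (chr11:50200152-50210790, minus strand) encodes p62, which hands ubiquitin-tagged cargo to autophagosomes. It had 624, 726 and 866 CPM in TKO, 466, 602 and 1175 in DKO, 429, 492 and 556 in MKO and 388, 463 and 507 in Ctrl. TKO lay above all MKO and Ctrl libraries, and DKO spread from inside the Ctrl range up to DKO 1, above every TKO library. The log2 ratio was 0.68 ± 0.15 in TKO against Ctrl and 0.55 ± 0.15 against MKO (adjusted p = 0.0192, edgeR; 0.000224 to 0.0475 over its alternatives). In DKO against Ctrl it was 0.56 ± 0.15 (adjusted p = 0.11, edgeR), and 0.32 ± 0.10 without DKO 1 (adjusted p = 0.132). Against DKO it was 0.11 ± 0.15 in TKO (adjusted p = 0.676, edgeR), and 0.35 ± 0.10 without DKO 1 (adjusted p = 0.0317). Tfeb had 62.7, 69.3 and 73.3 CPM in TKO, 63.7, 69.8 and 116 in DKO, 57.7, 75.0 and 77.8 in MKO and 56.8, 65.3 and 71.2 in Ctrl. It was not called in any of the 7 comparisons, and RNA levels say nothing of where the protein is.

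The contrasts with DKO and MKO set TKO against the groups that share its genotype or its guide virus. They share the TKO libraries with the contrast on which the set was chosen, so they are not independent of it. In TKO against DKO, 4 members were higher and 0 lower (Atp6v1a, Atp6v1c1, Atp6v1h and Lamp2), beside 6.38% of all genes called and 4.16% higher. Leaving aside Atp6v1h, on which the set was chosen, 3 of 31 were called. The members' median log2 ratio was 0.08, against -0.04 for all genes. Without DKO 1, 11 members were higher and 0 lower, beside 8.9% of genes called and 6.05% higher, and the medians were 0.19 for the members and -0.00 for all genes. The 7 added were Atp6v1f, Ctsa, Ctsl, Grn, Hexa, Npc2 and Sqstm1, so that 10 of the 31 other than Atp6v1h were called. All TKO libraries lay above all DKO libraries for 1 member, Atp6v1h, beside 2.55% of genes, and above the 5 other than DKO 1 for 3, Atp6v1h, Atp6v1c1 and Ctsa, beside 3.9%. Some cell type markers were called in this contrast too. Of 10 cardiomyocyte markers 2 (Myl3 and Tnnc1) were called lower, beside 273 of all 12281 tested genes. Their summed level was 93455 to 125054 CPM in TKO and 107499 to 135494 CPM in DKO. The median log2 ratio was -0.74 over the 8 endothelial markers, all below 0, and -0.63 over the 8 fibroblast markers, 7 of them below 0, with 0 called in either list. Over the 7 smooth muscle and pericyte markers it was -0.57, with 1 called higher. Over the 9 tested leukocyte markers it was -0.08, with 0 called. The part of these markers in the members' values was not tested.

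In TKO against MKO, 4 members were higher and 0 lower (Atp6v1c1, Atp6v1h, Ctsa and Sqstm1), beside 13.3% called and 6.48% higher, with medians of 0.17 for the members and -0.00 for all genes. Leaving aside Atp6v1h, 3 of 31 were called. Without DKO 1 the count was 10 higher and 0 lower, beside 22% called and 11.4% higher. The groups did not overlap for 3 members, Atp6v1h, Atp6v1c1 and Sqstm1, beside 4.64% of genes. Markers of other cell types moved in this contrast too. Of the endothelial markers 4 of 8 were called lower, with a summed level of 116 to 459 CPM in TKO and 458 to 1006 CPM in MKO. Of the smooth muscle and pericyte markers 4 of 7 were called lower and 1 higher, with a summed level of 395 to 663 CPM in TKO and 626 to 785 CPM in MKO. Of the fibroblast markers 1 of 8 was called lower and 7 had a log2 ratio below 0, with a median of -0.98 and a summed level of 300.1 to 394 CPM in TKO and 397 to 1095 CPM in MKO. None of these markers was at 0 across a whole group, and their part in the members' values was not tested.

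DKO, MKO and Ctrl were compared with each other without the TKO libraries in the contrast. In DKO against Ctrl, 0 members passed with edgeR, beside 0.635% of genes, with 4 at an unadjusted p under 0.05 and 1, Sqstm1, called by DESeq2, beside 1.36%. The median log2 ratio was 0.07 over the members and 0.02 over all genes. Without DKO 1 it was -0.01 over the members and -0.00 over all genes, and again 0 members passed, beside 1% of genes. Atp6v1d then stood at -0.24 ± 0.06 (adjusted p = 0.0707, edgeR) and the stalk subunit Atp6v1e1 at -0.28 ± 0.08 (adjusted p = 0.0947, edgeR). In MKO against Ctrl, 0 members passed with edgeR, beside 0% of genes, with 1 at an unadjusted p under 0.05 and 0 called by DESeq2, beside 0.00814%. The members' median was 0.03. In DKO against MKO, 0 members passed with edgeR, beside 0.79% of genes, with 6 at an unadjusted p under 0.05 and 0 called by DESeq2, beside 2.02%. The members' median in DKO against MKO was 0.05, with 18 above 0 and 14 below. Without DKO 1 it was -0.09, with 8 above 0 and 24 below, and again 0 members passed, beside 1.04% of genes. A p that misses the threshold does not show that these groups were alike.

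**Figure D4:**
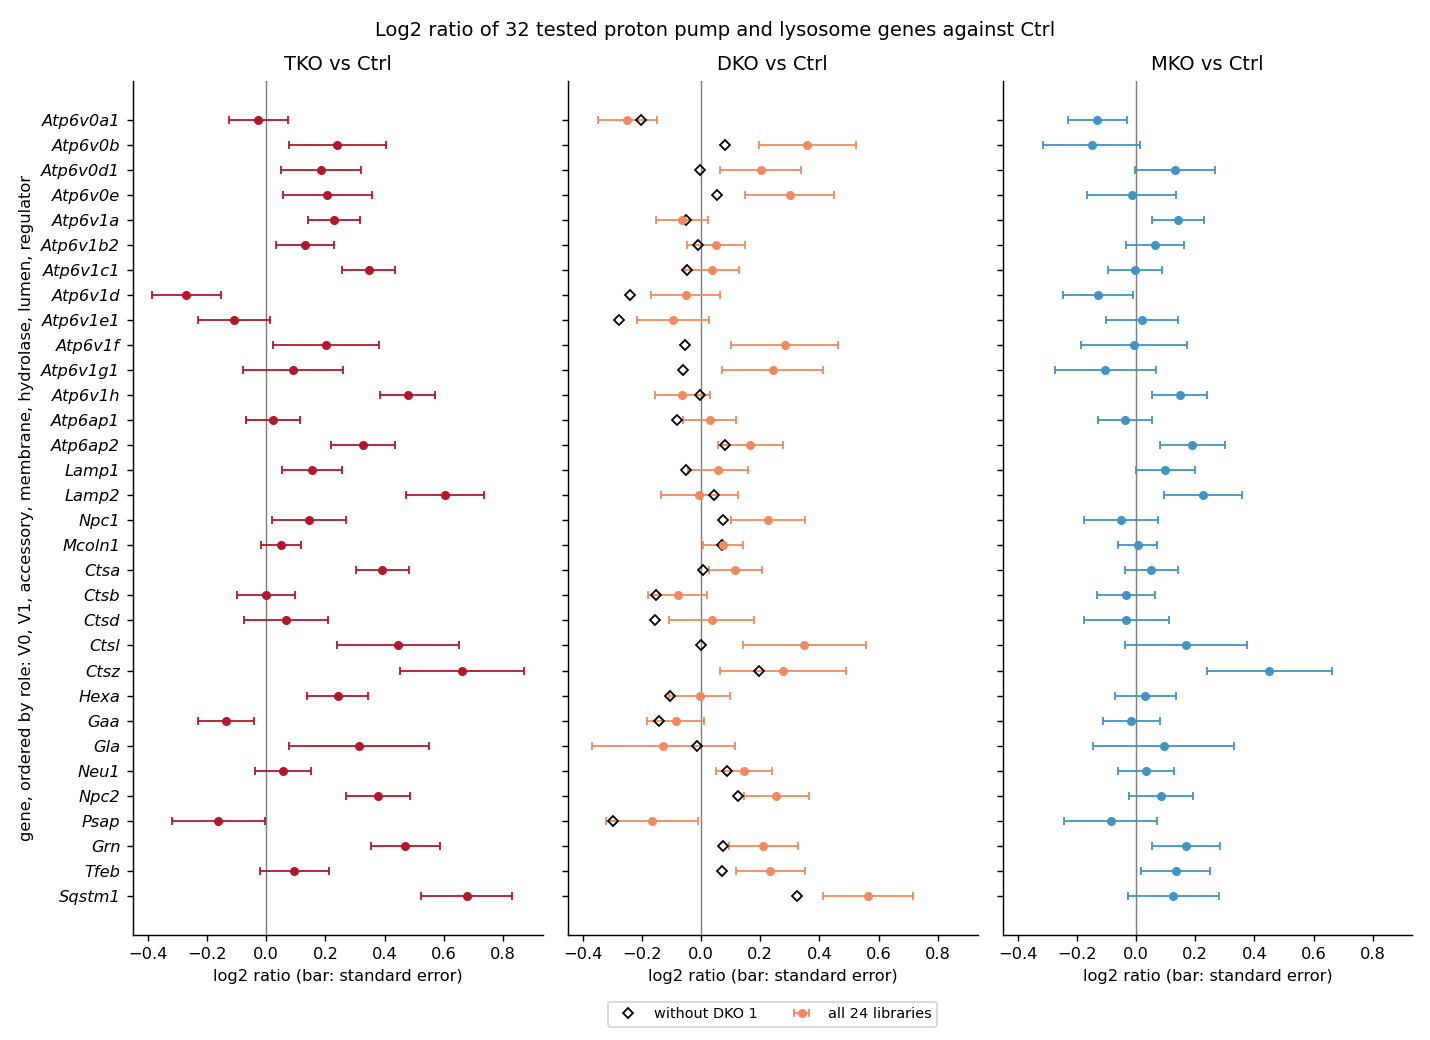
Log2 ratio against Ctrl (points; bars are standard errors) of the 32 tested genes in TKO, DKO and MKO, left to right; hollow diamonds in the DKO panel leave out DKO 1. The TKO points have a median of 0.19 and the MKO points of 0.03, and the DKO median of 0.07 becomes -0.01 without DKO 1.

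The interaction asks whether the guide changed a gene by a different amount in the Mrtf mutant mice, as the log2 ratio of TKO to DKO less that of MKO to Ctrl. With edgeR 0 of the 32 members passed, beside 0.464% of all genes, with 4 at an unadjusted p under 0.05 and 0 called by DESeq2, beside 1.56%. The median was 0.01 over the members, 16 of which were above 0. Without DKO 1 the median was 0.19, 29 of the 32 were above 0 and again 0 passed, beside 1.63% of genes. Atp6v1h was at 0.39 ± 0.13, and at 0.35 ± 0.11 without DKO 1. Atp6v1c1 was at 0.31 ± 0.13 (adjusted p = 0.304, edgeR), and at 0.41 ± 0.11 without DKO 1 (adjusted p = 0.0565). Ctsa was at 0.23 ± 0.13 (adjusted p = 0.486, edgeR), and at 0.34 ± 0.09 without DKO 1 (adjusted p = 0.0567). A different response in the Mrtf mutant mice was thus not called for any member.

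Within a library, members can also be counted against the Ctrl medians. TKO libraries had 22 to 26 of 32 members above the Ctrl median, DKO libraries 10 to 27, MKO libraries 17 to 26 and Ctrl libraries 11 to 25. The groups overlap, and the highest count, 27, is DKO 1.

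The wider pathway was read from 121 other genes, of which 111 were tested. They cover 18 further pump genes, 58 further lysosomal genes and 45 genes of autophagy and nutrient sensing. In TKO against Ctrl 15 were higher and 3 lower, 16.2% of the 111, near the 14.1% of all tested genes called. By direction, 8.14% of all tested genes were higher and 5.98% lower. The median log2 ratio of the 111 was 0.08, beside -0.01 over all genes. Gabarapl1, an autophagosome protein of the Atg8 family, had 56.4, 62.8 and 76.1 CPM in TKO, 36.9, 38.4 and 48.6 in DKO, 37.7, 42.7 and 48.9 in MKO and 37.8, 40.3 and 43.0 in Ctrl. Its TKO libraries lay above all others. It rose by 0.67 ± 0.09 against Ctrl (adjusted p = 1.26e-05, edgeR), by 0.65 ± 0.09 against DKO (0.64 ± 0.09 without DKO 1) and by 0.58 ± 0.09 against MKO. It was the 1 gene of the 111 called in the interaction, at 0.56 ± 0.13 (adjusted p = 0.0463, edgeR), and at 0.56 ± 0.13 without DKO 1 (adjusted p = 0.0247). Over the 30 alternatives the adjusted p ran from 0.00513 to 0.0987, and the call was lost in 17, among them without Ctrl 1 and with no filter on low counts.

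Further pump genes that rose in TKO against Ctrl were Atp6v0e2, an alternative small membrane subunit, by 0.83 ± 0.18 (adjusted p = 0.00235, edgeR) and Atp6v1g2, an alternative stalk subunit, by 0.58 ± 0.13 (adjusted p = 0.00255). Atp6v0e2 was at 0.70 ± 0.18 in DKO against Ctrl (adjusted p = 0.08, edgeR), and at 0.56 ± 0.17 without DKO 1 (adjusted p = 0.114). Of the other hydrolases, the cathepsin Ctso rose by 0.84 ± 0.18, the mannosidase Manba by 0.41 ± 0.13 and the glucosaminidase Naglu by 0.42 ± 0.12. Scarb2, a lysosomal membrane protein, rose by 0.34 ± 0.10. Of autophagy genes, Atg7, the enzyme that activates Atg8 proteins, rose by 0.37 ± 0.08, Becn1, a subunit of the lipid kinase that starts autophagosomes, by 0.23 ± 0.07 and Wipi2, which binds its product, by 0.29 ± 0.08. Of the exon bases of Becn1, 21.4% are shared with Cntd1. The cargo receptor Optn fell by 0.41 on the log2 scale, and the proteases Tpp1 and Ctsc fell by 0.27 and 0.79. Tfe3, a relative of Tfeb, rose by 0.32 ± 0.09 (adjusted p = 0.0162, edgeR). In TKO against DKO 7 of the 111 were higher and 0 lower (6.31%, beside 6.38% of all genes called and 4.16% higher). Against MKO, 7 were higher in TKO and 2 lower (8.11%, beside 13.3% of all genes called and 6.48% higher). In DKO against Ctrl and in MKO against Ctrl edgeR called 0, with 13 in DKO and 7 in MKO at an unadjusted p under 0.05, and DESeq2 called 1 in DKO and 0 in MKO.

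The authors' deposited tables list the comparisons between pairs of groups, and DESeq2 refits of each pair without Ctrl 3 and DKO 1 came within 0.001 of their log2 ratios for at least 99.99% of tested genes. The authors' deposited table of TKO against Ctrl lists Atp6v1h at 0.45 and has 7 members higher and 1 lower, Atp6v1d at -0.24, beside 15.8% of genes called. The authors' deposited tables give 9 members higher in TKO against DKO, beside 11.5%, and 10 higher in TKO against MKO, beside 20.8%. In DKO against MKO the authors' deposited table has 1 member lower, Atp6v1e1 at -0.29 (adjusted p = 0.00374), beside 3.69%. In DKO against Ctrl and in MKO against Ctrl the authors' deposited tables call 0 members, beside 1.8% and 0.11% of genes.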

How the data were processed

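RNA-seq counts were analysed for 24 libraries, 6 in each of TKO, DKO, MKO and Ctrl. Per the labels' protocols, libraries were made with SMART-Seq v4 and Nextera XT, which do not mark strand. Per the submitters' processing notes, STAR, featureCounts, DESeq2 and mm10 were used, and versions are not given in the sources used here. The authors deposited raw read counts per gene. Their comparison tables, per the file headers, hold DESeq2's mean normalized count (a signal), log2 fold change, its standard error, and p-value and adjusted p-value.

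From the counts, genes were filtered with edgeR 4.0.16 (filterByExpr, minimum count 10), scaled by TMM and fitted in 1 quasi-likelihood model of all 24 libraries with Benjamini-Hochberg adjustment over 12281 genes. The code was tested on simulated data. CPM uses the effective library size, and RPKM divides it by the exon length in the count table. Alternatives were DESeq2 1.42.0, relative log expression size factors, no filter, only the compared groups, a sex term, a replicate block, 22 libraries and leaving out each library. The 22 are those without Ctrl 3 and DKO 1. No libraries of a group agreed within sampling noise. Replicate numbers did not in general pair the libraries, although some same-numbered pairs correlated.

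The members, the pathway lists and the tests were chosen with earlier results of these data known. Values by group are given for Atp6v1h, the members called in any of the 7 comparisons, the highest member of each role class by RPKM in Ctrl, and the 12 called pathway genes with the smallest adjusted p, of which 1 is not reported here. Tfeb, Ctsl, Atp6v1d, Optn, Tpp1, Ctsc and the E-box promoters shown were chosen after their values were seen. Total counts were 10210516 to 17184517 in TKO, 5830185 to 12157279 in DKO, 9731621 to 13201995 in MKO and 8017413 to 11496873 in Ctrl.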

Additional observations from a re-analysis of the deposited data

Results flagged for a closer look

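For the 16 members described in full, 9 of 64 sets of 6 libraries (1 set for each member and group) held a library whose gap to the rest passed Dixon's 95% limit, and chance alone flags about 1 in 20. Of these, 8 were the library DKO 1, each time above the other 5 DKO libraries. Its values were 316.6 CPM for Atp6ap1, 257.9 for Atp6v0b, 122.0 for Atp6v1c1 and 270.6 for Atp6v1e1. For the lysosomal genes they were 323.4 CPM for Ctsa, 2051 for Ctsd, 719.1 for Lamp1 and 1175 for Sqstm1. In the MKO group, library MKO 2 had 45.5 CPM of Npc2, against 36.3 to 38.7 CPM in the other 5. The depth, sex and marker levels of DKO 1 moved with its values, and their part was not tested. By exon length, the shortest member, Atp6v1f (635 bases), had 113 CPM in DKO 1, against 39.9 to 50.7 CPM in the other 5 DKO libraries. The long Lamp2 (4111 bases) had 172 CPM in DKO 1, against 217 to 246 CPM. The longest member, Npc1 (5209 bases), went the other way from Lamp2, at 88.3 CPM against 44.3 to 58.1 CPM. The part of exon length was not tested.

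For Gabarapl1 the log2 ratio of TKO to DKO exceeded that of MKO to Ctrl by 0.56 in the test of the interaction (adjusted p = 0.0463, edgeR). The call was lost in 17 of 30 alternatives, with an adjusted p from 0.00513 to 0.0987.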

How the results depend on the processing

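Counts are given in the order TKO, DKO and MKO against Ctrl, TKO against DKO, TKO against MKO, DKO against MKO, and the interaction. Over all 24 libraries the calls were 1734, 78, 0, 784, 1639, 97 and 57 for all genes, 9, 0, 0, 4, 4, 0 and 0 for the members, and 18, 0, 0, 7, 9, 1 and 1 for the other pathway genes. In MKO against Ctrl, 762 genes had an unadjusted p under 0.05.

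DESeq2 called 167 genes in DKO against Ctrl, 1 in MKO against Ctrl, 1179 in TKO against DKO, 248 in DKO against MKO and 191 in the interaction. Of the members it called 1 in DKO against Ctrl, and of the other pathway genes 1 in DKO against Ctrl, 11 in TKO against DKO and 2 in DKO against MKO. With only the compared groups, all genes gave 43 in DKO against Ctrl, 269 in TKO against DKO, 2581 in TKO against MKO and 48 in DKO against MKO. The members then gave 1 in TKO against DKO and 8 in TKO against MKO, and the other genes 3 in TKO against DKO, 15 in TKO against MKO and 0 in DKO against MKO. With a sex term, all genes gave 187 in DKO against Ctrl, 1233 in TKO against DKO, 366 in DKO against MKO and 99 in the interaction. The members gave 1 in DKO against MKO (Atp6v0b), and the other genes 2 in DKO against Ctrl, 14 in TKO against DKO and 6 in DKO against MKO. With 22 libraries, all genes gave 2627 in TKO against Ctrl, 1239 in TKO against DKO, 2892 in TKO against MKO and 130 in the interaction. The members gave 11 in TKO against DKO and 10 in TKO against MKO, and the other genes 12 in TKO against DKO, 18 in TKO against MKO, 0 in DKO against MKO and 2 in the interaction. With no filter the members gave 2 in TKO against DKO, and the other genes 0 in DKO against MKO and 0 in the interaction.

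Leaving out 1 library gave 1403 to 2808, 55 to 124, 0 to 1, 495 to 1100, 1184 to 2725, 53 to 128 and 14 to 585 genes. The members gave 7 to 13, 0 to 1, 0 to 0, 2 to 11, 3 to 10, 0 to 0 and 0 to 0, and the other pathway genes 11 to 30, 0 to 1, 0 to 0, 4 to 11, 6 to 18, 0 to 2 and 0 to 2. The highest member counts came without DKO 1, except the 1 in DKO against Ctrl, which came without DKO 5 (Sqstm1, adjusted p 0.0389 by edgeR). The interaction gave 585 genes without Ctrl 2 and 14 without DKO 2. The cause of these moves was not tested. No result reversed its direction past the threshold under the alternatives run.

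Same-numbered libraries of different groups did not in general deviate together, although some pairs did. Over 36 pairs the correlation ran from -0.236 to 0.666 with a median of 0.0739, and 16 pairs were over 0.1. Of 24 libraries, 6 correlated best with their own number. The replicate block gave 1792, 95, 0, 908, 1834, 123 and 175 genes and 9, 0, 0, 3, 5, 0 and 0 members.

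Low counts limit Gla and Atp6v0c, and 97% of the exon bases of Atp6v0c are shared with Atp6v0c-ps2. DKO 1 is the library with the fewest counts. The members were tested at the level of whole genes, so isoforms such as those of Lamp2 cannot be told apart. RNA counts do not measure pump assembly, lysosomal pH or enzyme activity.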
